A study of Mus musculus with 6 samples.

Results

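The cell-division genes described here are 38 mouse genes of the G2 phase and mitosis, taken by name from a fixed list. That list was chosen with earlier results of these data known. All 38 were found among the 50763 gene symbols of the deposited count table, and all 38 passed the filter on low counts that left 19313 genes. Bulk RNA sequencing was carried out on bone marrow CD34- KSL cells, a population without lineage markers that carries c-Kit and Sca-1 and is rich in blood stem cells. All mice carried Tal1-tTA, a doxycycline-repressed activator made where the blood stem cell gene Tal1 is active, and TRE-EGFR-tr, the transgene that it switches on. In 3 libraries (EGFR-DN) the mice drank water without doxycycline and made an epidermal growth factor receptor without its cytoplasmic tyrosine kinase domain beside the wild-type receptor. In the other 3 libraries (EGFR-WT) the mice drank water with 0.2 g/L doxycycline and made the wild-type receptor only. Doxycycline therefore differed between the groups in every library, and its effect and that of the truncated receptor cannot be told apart. The labels give neither the age of the mice nor whether replicates came from separate animals, and a p-value here sets a difference against the spread of these samples only, part of which may be technical.

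Cells enter mitosis when cyclin-dependent kinase 1 is activated by B-type cyclins, and they leave it when the anaphase-promoting complex marks those cyclins for destruction. The genes for these proteins, for the spindle and for the kinetochores are held silent in resting cells by the DREAM repressor complex and are switched on late in the cell cycle by the B-MYB and FOXM1 activators. Their RNA is therefore widely used as a sign of dividing cells. Most long-term blood stem cells are at rest, while the progenitors that arise from them divide often. In bulk RNA a smaller share of dividing cells and less RNA per dividing cell cannot be told apart.

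The promoters are shown first, because the DREAM and B-MYB complexes act on these genes through a short promoter element, the cell cycle genes homology region (CHR), which is often found downstream of boxes bound by the factor NF-Y. RefSeq promoter windows (build GRCm38.p6, 250 bases before to 50 bases after the annotated start) were held for 32 of the 38 genes. Windows were searched on both strands. The usual form of the CHR sought was TTTGAA. A match to it on the other strand reads TTCAAA along the gene. The other form was TTCGAA, a palindrome. The NF-Y box sought was CCAAT. On the other strand it reads ATTGG. Matches to the CHR and to the NF-Y box can overlap by at most 1 base. In the 8 promoters below, from 120 bases before to 30 bases after the start and written 5′ to 3′ on the strand of the gene, capitals mark every match of either motif. They were chosen to show genes of different roles, among them Mki67 and Top2a, a pair of proliferation markers whose values parted in 1 library. All 8 hold a CHR, whereas 27 of the 32 windows do, so they do not stand for the windows without one.
Ccnb2 (cyclin B2, chr9:70421525-70421674, minus strand): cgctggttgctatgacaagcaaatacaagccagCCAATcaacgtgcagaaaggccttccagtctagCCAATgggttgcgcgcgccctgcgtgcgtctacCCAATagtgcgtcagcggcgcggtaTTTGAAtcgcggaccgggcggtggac
Cdk1 (cyclin-dependent kinase 1, chr10:69352883-69353032, minus strand): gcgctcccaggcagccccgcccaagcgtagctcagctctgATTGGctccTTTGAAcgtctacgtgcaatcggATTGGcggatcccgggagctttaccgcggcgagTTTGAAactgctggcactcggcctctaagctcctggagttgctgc
Cdc20 (activator of the anaphase-promoting complex, chr4:118437314-118437463, minus strand): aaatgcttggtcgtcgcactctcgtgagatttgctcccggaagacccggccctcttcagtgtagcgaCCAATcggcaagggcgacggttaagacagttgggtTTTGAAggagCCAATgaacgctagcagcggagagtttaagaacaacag
Ube2c (ubiquitin-conjugating enzyme of that complex, chr2:164769809-164769958, plus strand): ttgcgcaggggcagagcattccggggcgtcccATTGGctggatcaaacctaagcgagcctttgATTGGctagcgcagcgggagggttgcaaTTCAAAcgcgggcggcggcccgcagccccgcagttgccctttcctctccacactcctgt
Top2a (DNA topoisomerase, chr11:99024160-99024309, minus strand): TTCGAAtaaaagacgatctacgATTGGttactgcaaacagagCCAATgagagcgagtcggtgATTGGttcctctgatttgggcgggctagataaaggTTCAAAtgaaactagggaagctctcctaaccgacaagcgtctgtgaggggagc
Kif11 (spindle motor, chr19:37376262-37376411, plus strand): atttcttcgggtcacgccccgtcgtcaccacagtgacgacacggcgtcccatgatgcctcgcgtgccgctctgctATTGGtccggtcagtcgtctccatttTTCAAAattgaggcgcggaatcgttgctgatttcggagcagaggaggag
Racgap1 (cytokinesis regulator, chr15:99651627-99651776, minus strand): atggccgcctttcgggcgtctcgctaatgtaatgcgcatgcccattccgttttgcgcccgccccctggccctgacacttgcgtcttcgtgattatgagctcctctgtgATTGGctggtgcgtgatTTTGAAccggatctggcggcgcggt
Mki67 (surface protein of mitotic chromosomes, chr7:135716350-135716499, minus strand): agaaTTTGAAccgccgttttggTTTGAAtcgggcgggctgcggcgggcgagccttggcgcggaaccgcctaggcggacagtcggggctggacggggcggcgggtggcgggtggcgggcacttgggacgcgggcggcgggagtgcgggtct

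A CHR was found in 27 of the 32 windows (84.4%), against 21.7% of the windows of 27025 genes. It lay within 50 bases of the start in 24 of the 32 (75%), against 6.12% of all genes. CCAAT was found in 25 windows (78.1%, against 41.1%), and both motifs in 23 (71.9%, against 8.61%). In Ccnb2, for example, boxes began at positions -87, -54 and -21 from the start and CHRs at -167 and 5, and in Mki67 the boxes lay at -188, -166 and -141 and the CHRs at -116 and -98. In another 57 genes of G2 and mitosis, 33 of 48 windows held a CHR (68.8%), 34 held CCAAT (70.8%) and 26 held both (54.2%). In genes of the S phase, 9 of 42 windows held a CHR (21.4%) and 26 of 42 held CCAAT (61.9%). A match is a description of these letters and does not show that a factor binds there.

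**Figure D1:**
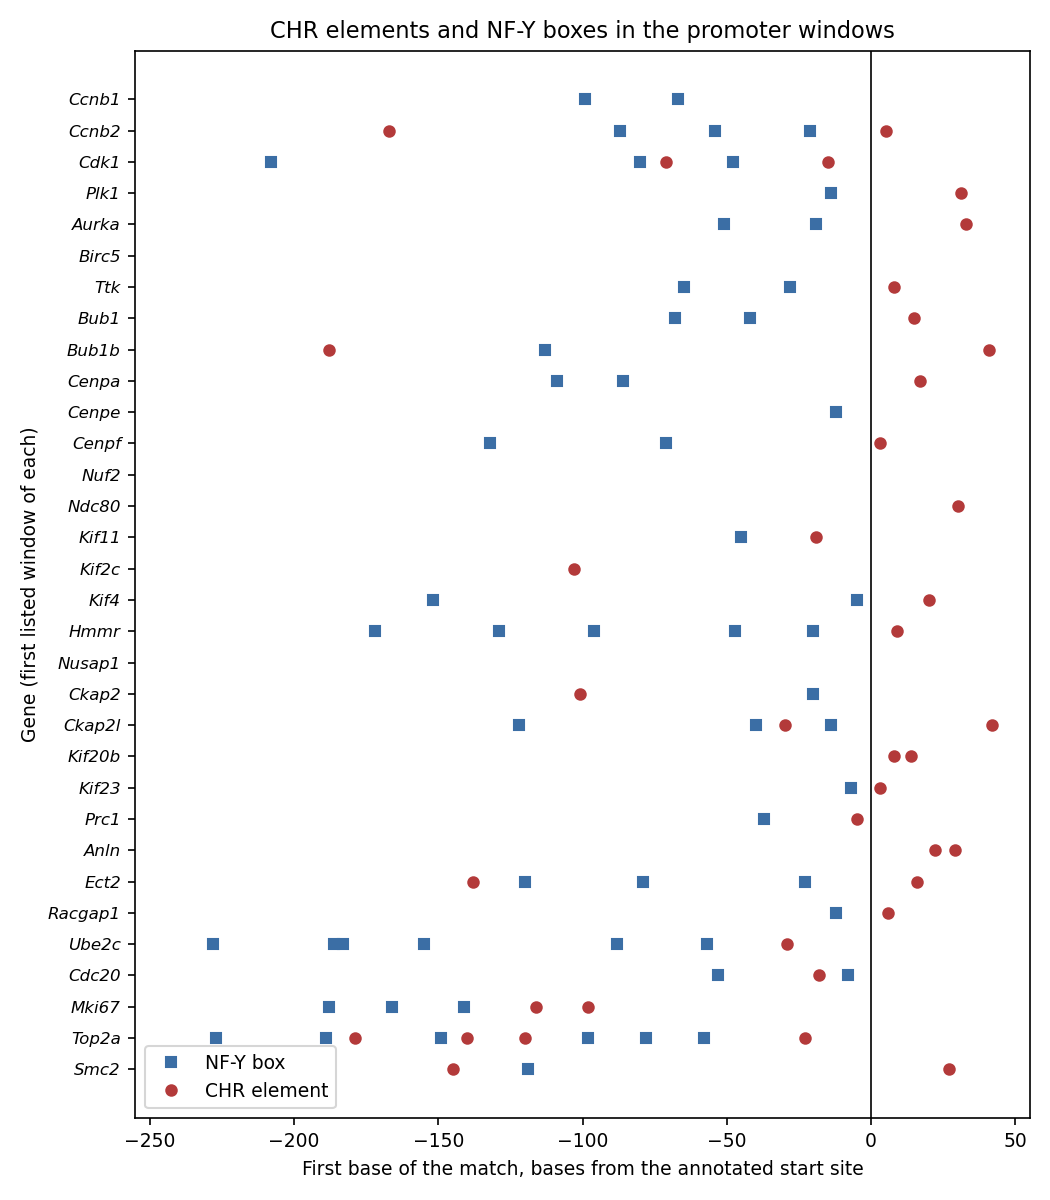
Position of each CHR element (circles) and NF-Y box (squares) in the promoter windows of 32 genes, in bases from the annotated start (x axis), with genes in rows by role. Most CHR elements lie within 50 bases of the start, while the boxes spread upstream of it; 24 of 32 genes have a CHR in that range.

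Total counts were 24073133 to 36032428 per library. Egfr counts were 4022, 4758 and 991 in EGFR-DN replicates 1 to 3 against 6 apiece in EGFR-WT, and its log2 fold change was 9.01 (SE 0.53, edgeR adjusted p = 0.00981). EGFR-DN replicate 3 stood apart from the other 5 libraries: rRNA-like genes took 25.4% of its counts against 4.71% to 6.15%, and its correlation with any other library, across genes, was at most 0.939 against at least 0.9749 among the others. Results are therefore given with and without it. Kit, the gene of c-Kit, was at 736 to 1962 CPM (counts per 1000000 counts, scaled by the trimmed mean of M-values), and Ly6a, a Sca-1 gene, at 46.7 to 78.4 CPM. Cd34 RNA was present at 318 to 569 CPM in cells sorted as CD34-, a gate that reads surface protein.

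The comparison asks whether transcripts of dividing cells differ when the truncated receptor is made, and no difference in the cell-division genes passed the test. Of the 38, 0 passed an edgeR adjusted p of 0.05 in either direction, and 0 had an unadjusted p under 0.05. Over all genes tested, 0.00518% were called higher and 0% lower, and 4.3% were higher and 2.4% lower at an unadjusted p under 0.05. DESeq2 also called 0 of the 38, with 1 at an unadjusted p under 0.05. The median log2 fold change (EGFR-DN over EGFR-WT) was 0.02 over the 38 genes and 0.01 over all genes, with 20 genes above 0 and 18 below. Scaled by library size alone, 12 lay above 0 and 26 below, and the medians of the 38 and of all genes were both -0.10. Adjusted p-values of the members ran from 0.690 to 0.974 by edgeR.

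The precision shows which differences these libraries could hold. The standard error of the log2 fold change had a median of 0.18 over the 38 genes against 0.29 over all genes tested. The 95% interval lay within a 1.5-fold change either way for 23 of the 38 (18.5% of all genes), and within a 2-fold change for 36 (49.8% of all genes). The exceptions to the 2-fold bound were Mki67, with an interval of -0.11 to 2.43 on the log2 scale, and Tpx2, with -0.22 to 1.07. Without EGFR-DN replicate 3 the interval lay within 1.5-fold for 37 genes (49.7% of all genes) and within 2-fold for 38 (65.4%). The median log2 fold change was again 0.02, 25 genes lay above 0, and values ran from -0.23 in Kif20b to 0.29 in Ect2. In that comparison 0.231% of genes were called higher and 0.0552% lower, and 0 of the 38. At an unadjusted p under 0.05 there was 1 member, Kif20b, on the lower side, against 6.64% of all genes higher and 6.99% lower.

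**Figure D2:**
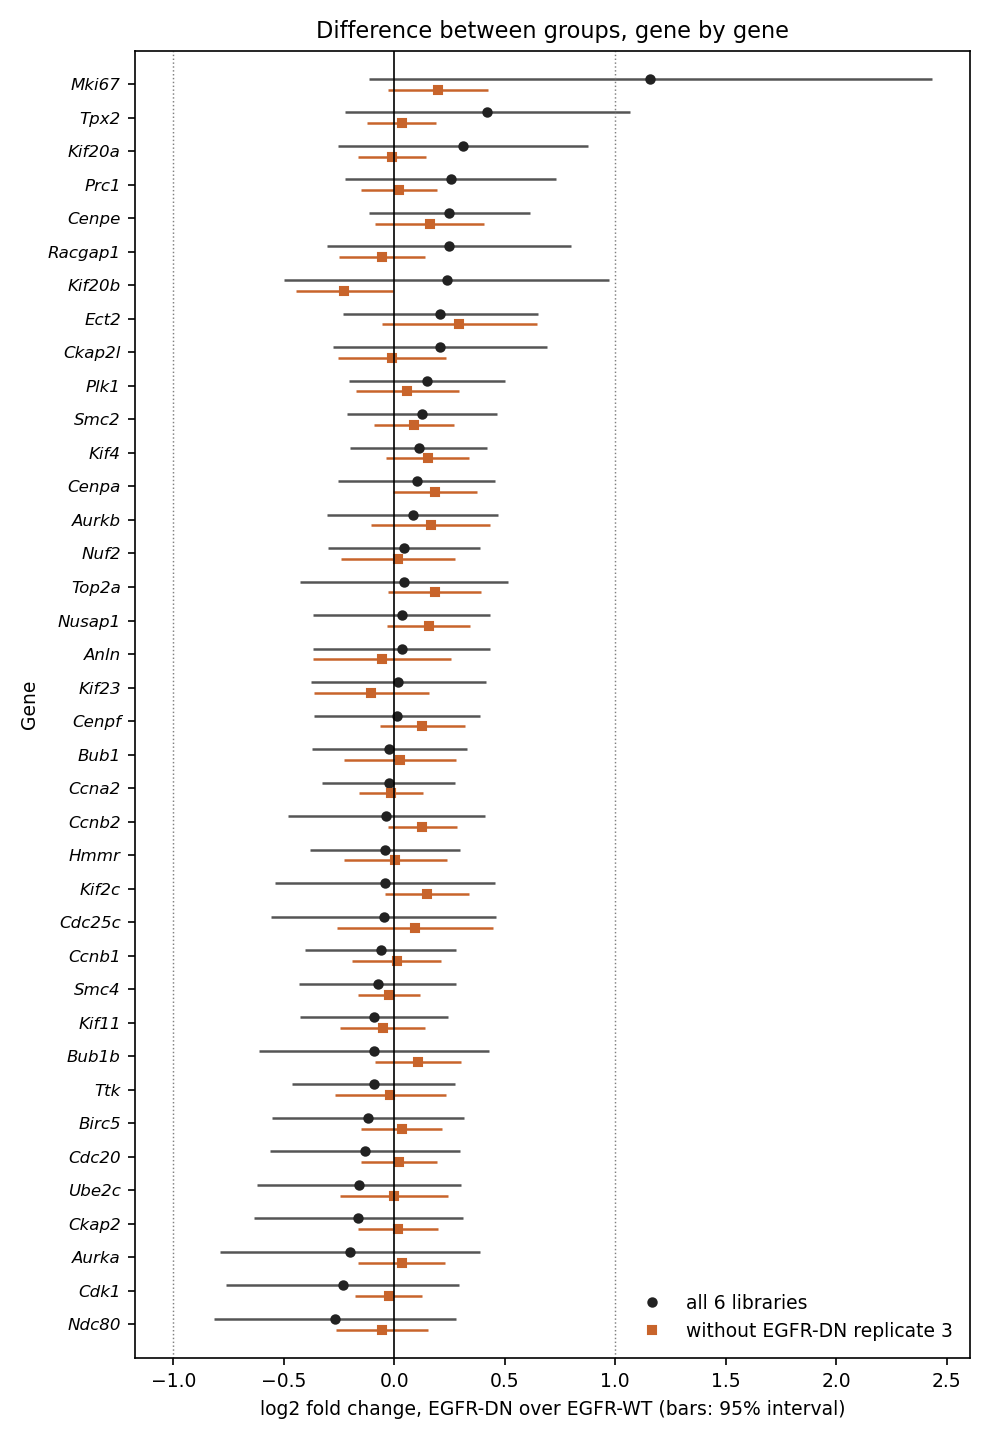
Log2 fold change of EGFR-DN over EGFR-WT (x axis) for each of the 38 genes (rows), with 95% intervals, in all 6 libraries (circles) and without EGFR-DN replicate 3 (squares); dotted lines mark a 2-fold change. Intervals of all 6 libraries include 0 in every gene, and those without replicate 3 are shorter, with Mki67 moving from 1.16 to 0.20.

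Groups overlapped in 38 of 38 genes, whereas over all genes tested EGFR-DN lay wholly above in 9.21% and wholly below in 8.72%. With EGFR-DN replicates 1 and 2 only, both lay above every EGFR-WT library in 5 genes (Ccnb2, Cenpa, Cenpf, Kif2c and Kif4; 16.3% of all genes) and below in 1 (Kif20b; 15.9% of all genes). Replicate 3 lay below the other 5 libraries in 21 of the 38, above them in 11, and within their range in 6. Over all genes it lay above in 38.1% and below in 38.3%.

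The genes were otherwise steady between libraries. The coefficient of variation among the 3 EGFR-WT libraries had a median of 5.66% over the 38 genes, from 0.350% in Cenpe to 18.7% in Ect2, against 10.7% over all genes tested. Among the 5 libraries other than EGFR-DN replicate 3, the highest value exceeded the lowest by a median of 1.17-fold, with a maximum of 1.48-fold in Ect2. All 38 had at least 100 counts in every library, from 132 to 22196. The members lie well above the typical gene: their median EGFR-WT mean was 48.5 CPM, against 13.6 CPM over all genes tested, which bears on how their variation compares with that of all genes.

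**Figure D3:**
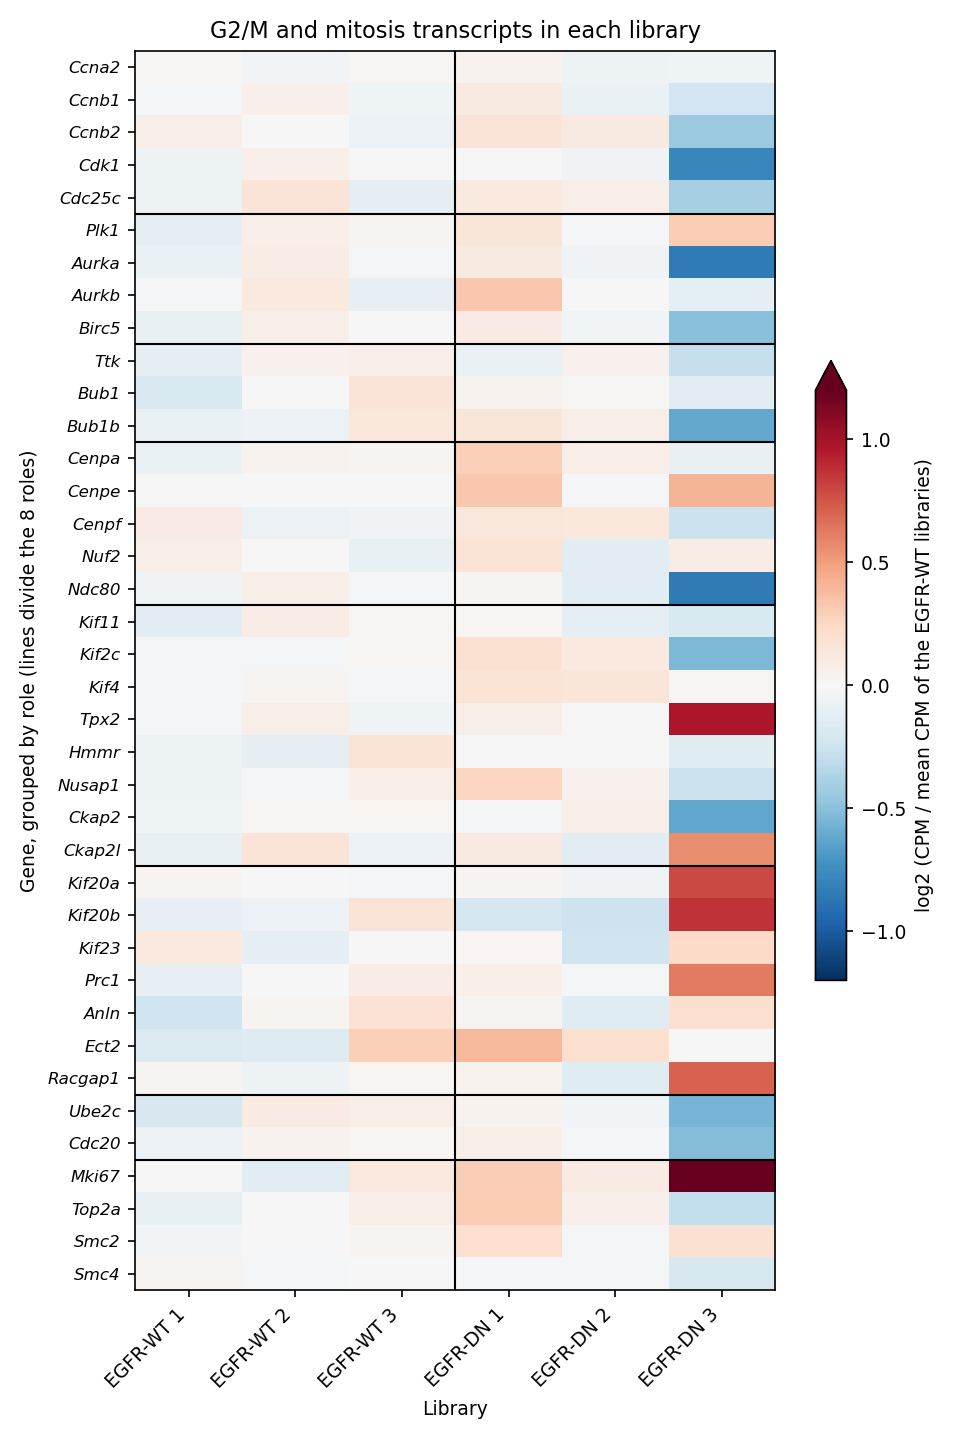
Log2 ratio of each gene (rows, divided by role) to its mean over the EGFR-WT libraries, in each library (columns); red is higher and blue lower, and the colour scale stops at 1.2 either way. The 5 columns other than EGFR-DN 3 are pale in all rows, and EGFR-DN 3 has both deep red rows, such as Mki67 and Tpx2, and deep blue rows, such as Aurka and Ndc80.

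Cyclins and CDK1 drive entry into mitosis. Ccnb1, the gene of cyclin B1, was at 44.3, 39.0 and 35.0 CPM in EGFR-DN replicates 1 to 3 and at 40.9, 43.1 and 39.7 CPM in EGFR-WT replicates 1 to 3 (log2 fold change -0.06, SE 0.14, edgeR adjusted p = 0.861). The groups overlapped, with the highest and the lowest value both in EGFR-DN. Cdk1, the kinase gene, was at 73.3, 71.2 and 42.5 CPM in EGFR-DN and 70.3, 76.4 and 73.2 CPM in EGFR-WT (-0.23, SE 0.22, edgeR adjusted p = 0.728). Replicates 1 and 2 of EGFR-DN lay inside the EGFR-WT range and replicate 3 alone lay below it, so that without it the log2 fold change was -0.03 (SE 0.06). Ccna2, cyclin A2, was the steadiest of the group, at 75.6 to 81.5 CPM in all 6 libraries. Ccnb2, cyclin B2, was at 50.2 CPM in EGFR-DN replicate 3 and at 65.0 to 76.0 CPM in the others, and Cdc25c, the phosphatase that activates CDK1, had the lowest CPM of the 38, not divided by length, at 6.69 to 9.86 CPM. Summed over these 5 genes, EGFR-DN replicate 3 had 211 CPM and the other 5 libraries 266 to 285 CPM.

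Among genes of mitotic kinases and the chromosomal passenger complex, Plk1 lay above the other 5 libraries in EGFR-DN replicate 3. Aurka, Aurkb and Birc5 lay below them in that replicate. Plk1, the polo-like kinase gene, was at 31.9, 28.3 and 35.6 CPM in EGFR-DN and 26.5, 30.4 and 29.5 CPM in EGFR-WT (log2 fold change 0.15, SE 0.15, edgeR adjusted p = 0.734). Its highest library was EGFR-DN replicate 3, and the groups overlapped through replicate 2. Aurka, the centrosome kinase gene, was at 52.2, 47.1 and 26.9 CPM in EGFR-DN and 45.8, 51.4 and 48.0 CPM in EGFR-WT (-0.20, SE 0.25, edgeR adjusted p = 0.760). Here replicate 3 was the lowest of all 6, and without it the log2 fold change was 0.03 (SE 0.08). Aurkb, the kinase of the passenger complex, was at 41.4 to 56.0 CPM, highest in EGFR-DN replicate 1. Birc5, survivin, the passenger subunit that docks it to centromeres, was at 42.1 CPM in EGFR-DN replicate 3 and 56.1 to 63.9 CPM in the others.

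The spindle checkpoint kinases delay anaphase until every chromosome is attached. Bub1b, the gene of BUBR1, was at 73.9, 69.9 and 43.6 CPM in EGFR-DN and 63.1, 63.7 and 73.2 CPM in EGFR-WT (log2 fold change -0.09, SE 0.22, edgeR adjusted p = 0.862). Replicates 1 and 2 of EGFR-DN were among the 3 highest libraries and replicate 3 was the lowest; without it the value was 0.11 (SE 0.08). Ttk, the kinase MPS1, ranged from 16.9 to 21.3 CPM, and Bub1 from 29.9 to 37.8 CPM with the extremes both in EGFR-WT. Summed, these 3 genes had 91.2 CPM in EGFR-DN replicate 3 and 111.8 to 132.3 CPM elsewhere.

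At the centromere and kinetochore, Cenpe and Ndc80 had the extreme values. Cenpe, a kinesin that carries chromosomes to the spindle equator, was at 47.0, 37.1 and 49.6 CPM in EGFR-DN and 37.4, 37.4 and 37.7 CPM in EGFR-WT (log2 fold change 0.25, SE 0.15, edgeR adjusted p = 0.690). Replicates 1 and 3 of EGFR-DN lay above all EGFR-WT libraries and replicate 2 just below them, and without replicate 3 the value was 0.16 (SE 0.11). Ndc80, the kinetochore protein that holds microtubule ends, was at 33.1, 29.4 and 18.1 CPM in EGFR-DN and 31.4, 33.9 and 31.9 CPM in EGFR-WT (-0.27, SE 0.23, edgeR adjusted p = 0.714). It was the lowest log2 fold change of the 38, and without replicate 3 it was -0.06 (SE 0.09). Nuf2, the partner of NDC80 in the same complex, did not follow it in replicate 3, where it was at 30.0 CPM in a range of 25.7 to 31.5 CPM over the others. Cenpa, the centromeric histone, was at 60.1 to 78.1 CPM. Cenpf, a large kinetochore protein, was at 30.5 CPM in replicate 3 and 34.7 to 39.99 CPM in the others.

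Among spindle motors and microtubule proteins, Tpx2 had the largest log2 fold change. Kif11, the motor that pushes spindle poles apart, was at 88.4, 80.4 and 76.6 CPM in EGFR-DN and 80.1, 92.7 and 88.9 CPM in EGFR-WT (log2 fold change -0.09, SE 0.14, edgeR adjusted p = 0.792). The groups overlapped over most of their range. Tpx2, which activates Aurora A on the spindle, was at 69.9, 67.0 and 131 CPM in EGFR-DN and 65.5, 70.0 and 64.4 CPM in EGFR-WT (0.42, SE 0.27, edgeR adjusted p = 0.690). Only replicate 3 lay outside the range of 64.4 to 70.0 CPM, and without it the value was 0.03 (SE 0.07). In that library Tpx2 was 1.94-fold the mean of the other 5 and its target kinase gene Aurka 0.550-fold. Ckap2, a spindle-pole protein, was at 37.4, 39.9 and 24.6 CPM in EGFR-DN and 36.8, 38.7 and 38.7 CPM in EGFR-WT (-0.16, SE 0.20), and its relative Ckap2l was at 94.7 CPM in replicate 3 and 58.9 to 71.6 CPM elsewhere. These relatives thus moved apart in the same library. Kif2c, a microtubule-depolymerising kinesin, was at 17.6 CPM in replicate 3 and 25.5 to 29.2 CPM in the others, and Kif4, a chromosome-bound kinesin, was at 25.2 to 28.7 CPM in all 6. Hmmr, a spindle-assembly protein, lay at 38.8 to 48.3 CPM, and Nusap1, which bundles microtubules, at 63.2 to 90.4 CPM.

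In genes of the spindle midzone and of cytokinesis, 6 of 7 members were above all other libraries in replicate 3. Kif23, the motor of the centralspindlin complex, was at 33.1, 27.5 and 38.1 CPM in EGFR-DN and 35.1, 30.0 and 32.3 CPM in EGFR-WT (log2 fold change 0.02, SE 0.17, edgeR adjusted p = 0.966). EGFR-DN held both the highest and the lowest library. Racgap1, the other subunit of centralspindlin, was at 79.3 CPM in replicate 3 and 43.8 to 49.9 CPM in the other 5 libraries. Kif20a, a midzone kinesin, was at 95.1 CPM against 53.4 to 56.0 CPM, and Prc1, which bundles midzone microtubules, at 115.4 CPM against 69.8 to 79.3 CPM. In replicate 3 these 3 genes were 1.65-fold, 1.74-fold and 1.53-fold the mean of the other libraries. Kif20b, a cytokinesis kinesin, was at 43.5, 42.0 and 90.9 CPM in EGFR-DN and 46.6, 47.6 and 55.3 CPM in EGFR-WT. Replicates 1 and 2 were below all EGFR-WT libraries and replicate 3 above all, so that the log2 fold change was 0.24 (SE 0.31) with and -0.23 (SE 0.09, edgeR adjusted p = 0.351) without that library. Anln, a scaffold of the cleavage furrow, was at 22.7 to 30.5 CPM, and Ect2, the exchange factor that starts furrowing, at 27.6 to 40.8 CPM. Summed over the 7 genes, replicate 3 had 481 CPM and the other 5 libraries 301 to 338 CPM.

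Partners of the anaphase-promoting complex were low in replicate 3. Ube2c, its ubiquitin-conjugating enzyme, was at 44.0, 41.9 and 29.2 CPM in EGFR-DN and 37.4, 45.7 and 45.3 CPM in EGFR-WT (log2 fold change -0.16, SE 0.20, edgeR adjusted p = 0.759). EGFR-DN replicates 1 and 2 lay inside the EGFR-WT range. Cdc20, its mitotic activator, was at 36.5 CPM in replicate 3 and 49.8 to 54.8 CPM in the others.

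The 4 genes of chromosome structure had the highest CPM of the 38, not divided by length, and Mki67 among them had the widest interval. Mki67, the gene of the proliferation marker Ki-67, was at 315, 274 and 1126 CPM in EGFR-DN and 256, 233 and 278 CPM in EGFR-WT (log2 fold change 1.16, SE 0.54, edgeR adjusted p = 0.690). Replicate 2 lay inside the EGFR-WT range, replicate 1 slightly above it, and replicate 3 at 4.15-fold the mean of the other 5 libraries. Without replicate 3 the log2 fold change was 0.20 (SE 0.10, edgeR adjusted p = 0.422). Top2a, the topoisomerase that untangles chromosomes, was at 309, 262 and 205 CPM in EGFR-DN and 236, 252 and 266 CPM in EGFR-WT (0.04, SE 0.20, edgeR adjusted p = 0.932). It was lowest in the library where Mki67 was highest, and highest in EGFR-DN replicate 1. Counts of Mki67 per 100 counts of Top2a were 550 in replicate 3 and 92.5 to 109 in the other 5. Smc2 and Smc4, the paired core subunits of condensin, were at 123 to 145 CPM and 192 to 224 CPM.

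The summed level of the 38 genes was 2715, 2466 and 3320 CPM in EGFR-DN replicates 1 to 3 and 2395, 2460 and 2534 CPM in EGFR-WT replicates 1 to 3. The groups overlapped, since EGFR-DN replicate 2 lay between EGFR-WT replicates 2 and 3. The ratio of the means was 1.15, and 1.05 without EGFR-DN replicate 3. The sum of replicate 3 exceeded the mean of the other 5 libraries by 806 CPM, and Mki67 alone exceeded its own mean there by 854 CPM. Mki67 took 33.9% of the member counts there and 9.46% to 11.6% elsewhere. Without Mki67 the sums were 2400, 2193 and 2195 CPM in EGFR-DN and 2139, 2227 and 2256 CPM in EGFR-WT, a ratio of 1.03, and 1.04 without replicate 3 as well. The largest of these sums was that of EGFR-DN replicate 1, the library in which 17 of the 38 genes had their highest value. The excess of replicate 3 in the sum of all 38 depended on the scaling. By library size alone these sums were 2814, 2544 and 2720 CPM in EGFR-DN and 2514, 2562 and 2631 CPM in EGFR-WT.

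**Figure D4:**
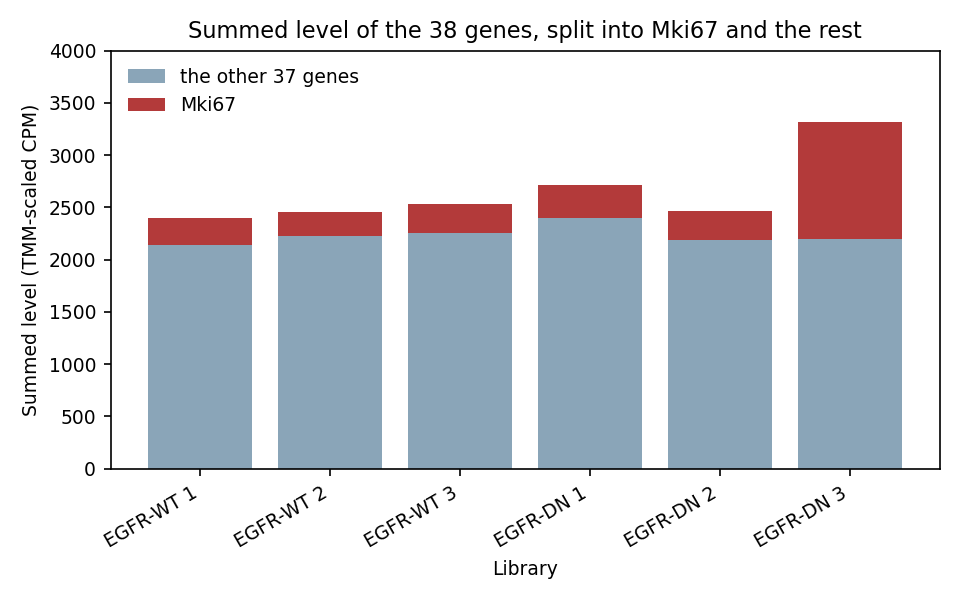
Summed level of the 38 genes in each library (bars, in CPM), split into Mki67 (upper, red) and the other 37 genes (lower, blue). The lower parts lie between 2139 and 2400 CPM in all 6 libraries, while the upper part is 1126 CPM in EGFR-DN replicate 3 and 233 to 315 CPM in the others.

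Per kilobase of the longest coding transcript, a scale on which different genes can be compared, the EGFR-WT levels ran from 50.7 ± 1.07 CPM per kb in Smc4 (SD, n = 3) down to 3.27 ± 0.206 in Cenpf. After Smc4 came Top2a at 48.1 ± 2.85, Ccnb2 at 44.6 ± 2.17, Cenpa at 43.7 ± 1.96 and Cdc20 at 29.1 ± 1.15 CPM per kb. Neighbours in this order overlapped in their EGFR-WT values except at 5 steps, after Cenpa, Cdc20, Ckap2, Kif4 and Cdc25c. Mki67, the highest gene in CPM, had rank 7 in this order at 25.4 ± 2.26 CPM per kb, behind Ccna2 at 26.7 ± 0.476. The large genes Cenpe and Cenpf stood at the low end, at 4.74 ± 0.0166 and 3.27 ± 0.206 CPM per kb. The division assumes reads spread evenly along each transcript, which the table cannot show.

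**Figure D5:**
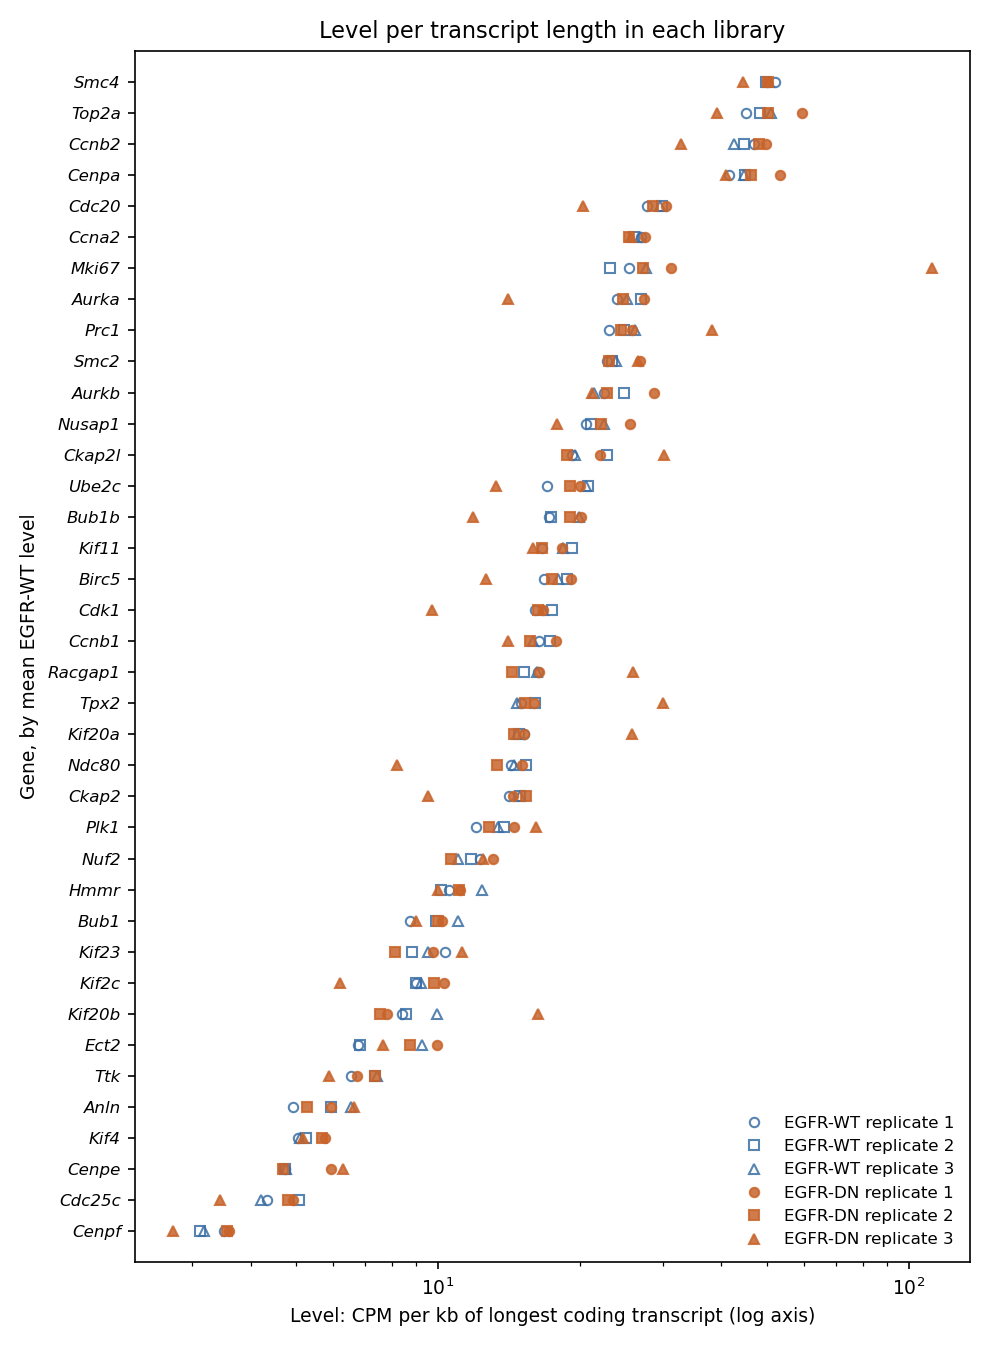
Level of each gene per kilobase of transcript (x axis, log scale, CPM per kb) in each EGFR-WT library (open symbols) and EGFR-DN library (filled symbols), with genes ordered by the EGFR-WT mean. EGFR-DN replicate 3 (filled triangles) stands off to the right in Mki67 and to the left in Aurka, while the other symbols of a row lie close together.

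The values of EGFR-DN replicate 3 were set against transcript length. Across the 38 genes the deviation of that library from the other 5 had a Spearman correlation with transcript length of 0.42, and of 0.38 over the 37 genes without Mki67. Across 9180 genes with a mean of at least 10 CPM it was 0.50, while in EGFR-DN replicate 1 it was 0.05 across those genes and -0.03 across the 38. All points of one correlation share the same library, and genes are not independent replicates. Genes above the other 5 libraries in replicate 3 had a median length of 3674 bases and those below 2842 bases, but the 6 within their range had 3753.5 bases, so the lengths of the 3 sets do not follow their order. Mki67 lay at the percentile 99.3 of that deviation among 10567 genes with at least 10 CPM, and the middle range (from the first to the last quartile) of the 38 genes was -0.48 to 0.25 on the log2 scale against -0.64 to 0.51 over all of these genes. The part that rRNA-like counts, RNA quality or length had in these values was not tested.

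The cell-division genes were also set beside genes of the S phase, when DNA is copied. There were 42.7, 42.9 and 61.7 member counts per 100 counts of 58 S phase genes in EGFR-DN replicates 1 to 3, and 46.7, 43.6 and 45.2 in EGFR-WT replicates 1 to 3. Without Mki67 the same ratios were 37.8, 38.2 and 40.8 against 41.7, 39.5 and 40.2. Replicate 3 then lay inside the EGFR-WT range. EGFR-DN replicates 1 and 2 lay below that range, as they did with Mki67. The S phase genes had a median log2 fold change of 0.04, with 36 of 58 above 0, against 0.01 and 51.0% over all genes. Without replicate 3 their median was 0.16 with 56 of 58 above 0 (48.9% of all genes), while the cell-division genes had 25 of 38 above 0. The libraries of a group differed. The median log2 ratio of the S phase genes to the EGFR-WT mean was 0.22, 0.08 and -0.20 in EGFR-DN replicates 1 to 3. In EGFR-WT replicates 1 to 3 it was -0.10, 0.05 and 0.05. Their sums were 6353, 5745 and 5378 CPM in EGFR-DN and 5128, 5643 and 5613 CPM in EGFR-WT. By edgeR 0 of the 58 passed the threshold in either comparison (also 0 by DESeq2 in all 6 libraries). At an unadjusted p under 0.05 there were 0 in all 6 libraries and 8, all higher, without replicate 3. In the comparison without it, 6.64% of all genes were higher and 6.99% lower at that p. The helicase gene Blm had a log2 fold change of 0.47 (SE 0.20), the polymerase gene Pole 0.46 (SE 0.21), the replication helicase gene Mcm2 0.64 (SE 0.31) and the licensing factor gene Cdc6 0.32 (SE 0.16). Without replicate 3 they were at 0.34, 0.26, 0.23 and 0.24, and 0 of the 4 passed.

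Another 57 genes of G2 and mitosis were set beside the 38. Their median log2 fold change was 0.03, with 31 of 57 above 0 (51.0% of all genes). By edgeR 0 passed and 1 had an unadjusted p under 0.05 (0 and 3 by DESeq2), and 6.69% of all genes had such a p by edgeR. The gene named by edgeR was Kif14, a cytokinesis kinesin, at 9.77, 8.28 and 26.9 CPM in EGFR-DN and 6.77, 5.86 and 6.59 CPM in EGFR-WT (1.22, SE 0.45, edgeR adjusted p = 0.690). All 3 EGFR-DN values exceeded all EGFR-WT values, replicate 3 by far the most, and without it the value was 0.49. The separase gene Espl1 (0.76, SE 0.34), the kinetochore scaffold gene Knl1 (0.74, SE 0.34) and the condensin gene Ncapg2 (0.31, SE 0.14) did not pass, and without replicate 3 were at 0.29, 0.23 and 0.23. EGFR-DN lay wholly above EGFR-WT in 6 of the 57 and wholly below in 1, against 0 of the 38 in either direction. Over all genes tested the shares were 9.21% above and 8.72% below. Per 100 S phase counts these genes had 95.3, 97.6 and 81.9 counts in EGFR-DN replicates 1 to 3 and 103.8, 98.2 and 102.5 in EGFR-WT replicates 1 to 3. Every EGFR-DN ratio was below every EGFR-WT ratio, with replicate 3 the lowest. For the 38, EGFR-DN replicates 1 and 2 were below every EGFR-WT ratio as well, and only replicate 3 was not, with or without Mki67. Without replicate 3 the list of 57 had a median of 0.08 and 0 past the threshold. At an unadjusted p under 0.05 it had 6 genes higher (6.64% of all genes) and 1 lower (6.99%).

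The regulators of these promoters did not pass either. The 14 tested had a median log2 fold change of 0.23 with all libraries and 0.03 without replicate 3. Foxm1, the activator of mitotic genes, was at 26.5, 24.5 and 44.5 CPM in EGFR-DN and 20.1, 23.5 and 22.5 CPM in EGFR-WT (0.53, SE 0.25, edgeR adjusted p = 0.690). EGFR-DN lay above EGFR-WT in all 3 libraries, and without replicate 3 the value was 0.21. Rbl1, a pocket protein of the DREAM family, was at 0.29 (SE 0.15), Nfya, the NF-Y subunit gene, at 0.74 (SE 0.41), and E2f4, the DREAM subunit gene, at 0.61 (SE 0.40). Without replicate 3 they were at 0.19, 0.11 and -0.02. EGFR-DN lay wholly above EGFR-WT in Foxm1 and Rbl1, 2 of the 14 (9.21% of all genes), and wholly below in 0 (8.72%). The 17 genes of the anaphase-promoting complex and its regulators had a median of -0.05 (-0.06 without replicate 3). Of the 17, 4 lay above 0 (51.0% of all genes), and 7 without replicate 3 (48.9%). EGFR-DN lay wholly below EGFR-WT in 3 of the 17 (8.72% of all genes) and wholly above in 0 (9.21%). Among the 17, the scaffold subunit gene Anapc1 was at 0.54 (SE 0.32) and the small subunit gene Anapc13 at -0.47 (SE 0.38). The inhibitor gene Fbxo5 was at -0.27 (SE 0.20) and the conjugating enzyme gene Ube2s at -0.32 (SE 0.26). By edgeR 0 of the 14 regulators and 0 of these 17 genes passed or had an unadjusted p under 0.05. The same counts held by DESeq2. Without replicate 3, 1 regulator, Rbl1, was higher at such a p by edgeR, against 6.64% of all genes.

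Over lists of markers of other cells, the median log2 fold change ran from -0.48 (mast cells and basophils) to 1.497 (neutrophil granules), against 0.02 for the cell-division genes. Progenitor markers, 8 genes led by Cd34, summed to 1511, 1329 and 1003 CPM in EGFR-DN and 750, 935 and 973 CPM in EGFR-WT. Every EGFR-DN sum lay above every EGFR-WT sum, 7 of 8 log2 fold changes were above 0 with a median of 0.63, and 4 genes had an unadjusted p under 0.05. Stem cell markers, 13 genes led by Kit, had a median of -0.22 with 4 of 13 above 0, and of -0.65 with 0 of 13 above 0 without replicate 3. They summed to 1621, 1900 and 4232 CPM in EGFR-DN replicates 1 to 3 and 2530, 2150 and 2128 CPM in EGFR-WT replicates 1 to 3. The highest sum was thus that of EGFR-DN replicate 3. Neutrophil granule genes, led by Mpo, summed to 914, 920 and 1445 CPM against 412, 598 and 461 CPM, and 10 of the 10 tested lay above 0. S100a8, S100a9, Ngp, Ltf, Camp, Fcnb and Lcn2 of that list were at no more than 3.91 CPM in any library. Of its genes at higher levels, Mpo lay wholly above, at 648 to 1261 CPM against 262 to 429 CPM. In Elane, Ctsg, Ms4a3 and Prtn3 the groups overlapped, Prtn3 at 59.8 to 93.2 CPM against 68.4 to 90.9 CPM. Monocyte and macrophage genes, led by Lyz2, summed to 327, 314 and 151 CPM in EGFR-DN and 259 to 269 CPM in EGFR-WT. Lyz2 made up most of those sums. The median log2 fold change over the 8 genes tested was 0.96, with 7 above 0. Of these 8, 5 were higher at an unadjusted p under 0.05, and in 4 EGFR-DN lay wholly above EGFR-WT. Over all genes tested 51.0% lay above 0, 4.3% were higher at that p and 9.21% lay wholly above. Erythroid markers summed to 1763 to 1901 CPM in EGFR-DN and 2016 to 2451 CPM in EGFR-WT, of which Car2 alone made up 1044 to 1456 CPM and 1560 to 2150 CPM. The median of the 12 erythroid genes tested was on the other side, at 0.32 with 9 above 0. Plasma cell markers, led by Jchain, summed to 1287 to 3713 CPM and 444 to 1932 CPM. Smaller sums were those of B cells (51.6 to 71.5 CPM against 36.6 to 48.4 CPM), T and NK cells (175 to 266 CPM against 141 to 172 CPM), and endothelium and stroma (150 to 252 CPM against 113.7 to 138.1 CPM). Megakaryocyte markers summed to 697 to 800 CPM against 530 to 969 CPM, and mast cell and basophil markers to 232 to 381 CPM against 296 to 361 CPM. By edgeR 0 genes of these lists passed in all 6 libraries. At an unadjusted p under 0.05 a list held 0 to 6 genes higher (4.3% of all genes) and 0 to 3 lower (2.4%). DESeq2 called at most 1 gene in a list. Without replicate 3 edgeR called 1 progenitor, 2 neutrophil granule and 1 monocyte gene higher and 1 endothelium and stroma gene lower. At an unadjusted p under 0.05, 10 of 13 stem cell markers were then lower and 7 of 8 progenitor markers higher. Over all genes in that comparison, 6.99% were lower and 6.64% higher at that p, and 0.231% were called higher and 0.0552% lower. Single genes of a list differed widely in level. Pax5, Cd3e and Cdh5 were at no more than 0.152, 0.254 and 0.507 CPM in any library, while Cd79b of the B cell list was at 21.4 to 39.6 CPM, Nkg7 of the T and NK cell list at 98.9 to 226 CPM and Pecam1 of the endothelial list at 48.4 to 143 CPM. The part that cell composition had in the levels of the 38 genes was not tested.

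Some of the reads behind these values cannot be assigned with certainty. The counts were split in at least 1 library for 21 of the 38 genes and whole in all libraries for 17. The library kit does not mark strand, and 10 members share exon bases with a gene on the opposite strand: Ckap2l, Nusap1, Ube2c, Ccna2, Cdc20, Plk1, Prc1, Cdc25c, Kif20a and Kif4. Reads from those stretches cannot be told apart from reads of Gm14024, Oip5, Tnnc2, Exosc9, Elovl1, Gm44985, Rccd1, Gm3550, Cdc23 and Pdzd11, in the same order. Top2a overlaps a small RNA gene, Gm23451, on its own strand. Mki67 shares no exon with an annotated gene of that reference.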

How the data were processed

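RNA of sorted bone marrow CD34- KSL cells was measured in 6 libraries, grouped by the name EGFR-DN or EGFR-WT in their titles. Both groups carried the same transgenes and differed in doxycycline. Libraries were made with SMART-Seq v4 from 10 ng of RNA, primed with oligo(dT), and Nextera XT, and read singly over 75 bases, per the labels' protocols. The authors deposited unscaled estimated counts by gene symbol, and 79.4% of the values were whole. DRAGEN, DESeq2 1.40.2, R 4.3.1 and mouse build mm39 are named in the submitters' processing notes. The task of each tool, the annotation and any use of strand in counting were not given in the sources used here.

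Members and gene lists alike were chosen with earlier results of these data known. Estimated counts were rounded, filtered with filterByExpr, scaled by TMM and fitted with edgeR 4.0.16 (R 4.3.3) over all 19313 genes. Its quasi-likelihood test was two-sided, p-values were adjusted by the Benjamini-Hochberg method, and the threshold was 0.05. The standard error is the absolute log2 fold change over the root of F, and intervals use the t distribution at 95%. Values are TMM-scaled CPM. The deviation of a library is log2 of CPM plus 0.5 against the mean of the other 5. A level of 3 counts corresponds to 0.0833 to 0.125 CPM, for counting error only, since PCR copies are not independent molecules. No libraries were duplicates (chi-square per degree of freedom at least 16.3 for each pair). Transcript lengths and overlaps were read from GENCODE M21 (GRCm38) by symbol, and promoters from RefSeq (GRCm38.p6).

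All members were given values. Folds with their errors and adjusted p went to 11 genes that lead their roles and to the 3 with the smallest p in each direction, and from each other cell cycle list to at most 4 genes with the smallest p and a mean of at least 1 CPM. Kif20b is an exception, chosen after its values were seen. Alternatives were other scalings, DESeq2 1.42.0, limma-voom 3.58.1 with and without library quality weights, other filters, removal of rRNA-like genes, the replicate block, and each library left out in turn. The fit was tested on simulated counts with known changes.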

Additional observations from a re-analysis of the deposited data

How the results depend on the processing

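Of the 38 cell-division genes, 0 passed the threshold under any of 17 alternatives, and the smallest adjusted p of a member was 0.306. The count with an unadjusted p under 0.05 was 0 to 2. A log2 fold change changed sign in at least 1 alternative in 24 members and in none of them in 14, and leaving out EGFR-DN replicate 3 alone changed 17. The median over the members ran from -0.10 to 0.04; the lowest came with library size alone, which put the median of all genes at -0.10 as well and the anaphase-promoting complex list at -0.17. Leaving out 1 library put that list between -0.17 (without EGFR-DN replicate 1) and -0.049. The ratio of the summed levels ran from 1.03, with Mki67 left out of the sum (chosen after seeing the data), to 1.23.

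Over all genes, 1 was called higher and 0 lower. DESeq2 called 78 higher and 30 lower, limma-voom 0 higher and 0 lower, and limma-voom with library quality weights 145 and 43. Leaving out 1 library gave 0 to 46 higher and 0 to 11 lower, the most without EGFR-DN replicate 3, and DESeq2 without that replicate gave 482 and 375. With 1 library left out, a group has 2 samples. Whether replicate numbers pair the samples could not be decided. Deviations of same-numbered libraries correlated at -0.02, 0.05 and 0.06 across genes. EGFR-DN replicate 1 correlated best with EGFR-WT replicate 2 (0.10), while EGFR-DN replicates 2 and 3 each correlated best with the same-numbered library. Deviations were taken from group means, which in EGFR-DN include the odd replicate 3, so low values do not exclude pairing. With the replicate block, 1 gene was called higher and 0 lower, 0 members passed, and the member median was 0.01. Members had at least 132 counts in every library; that lowest count was of Cdc25c, which without EGFR-DN replicate 3 also had the largest SE of the 38 (0.15 against a median of 0.08). Annotation, strand setting and shared exon bases limit what single values mean, and 3 libraries a group, of which 1 stands apart, limit the precision.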
